A study of Mus musculus with 7 samples.

Results

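The genes described here are the glucocorticoid receptor Nr3c1, the mineralocorticoid receptor Nr3c2, the dehydrogenases Hsd11b1 and Hsd11b2, and the receptor targets Fkbp5, Tsc22d3, Sgk1 and Zbtb16. They were chosen by symbol, and all 8 were found among the 35976 gene symbols of the deposited table. RNA was sequenced from adrenal glands pooled from mice of the inbred C57BL/6J strain, with no treatment named in the labels. The pools were E18.5, late in gestation (40 glands, sex not determined), postnatal day 1, called P1 (16 glands from males, 22 from females), 2 weeks (6 glands from each sex) and 12 weeks (4 glands from each sex). Each group was 1 pool and 1 library, so its value has no replicate error, and whole glands mix cortex, medulla, capsule, vessels and any tissue left attached.

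Corticosterone, the main glucocorticoid of the mouse, is made in the adrenal cortex and acts through receptors that bind DNA once the hormone is bound. Nr3c1 encodes the glucocorticoid receptor, which is present in most cells, and Nr3c2 encodes the mineralocorticoid receptor, which binds both aldosterone and corticosterone. Hsd11b1 encodes an enzyme that mainly regenerates active corticosterone from its inert keto form inside cells, whereas the enzyme of Hsd11b2 inactivates corticosterone and so lets aldosterone reach its receptor in tissues such as the kidney tubule. Fkbp5 encodes a co-chaperone that lowers the hormone affinity of the glucocorticoid receptor. Tsc22d3 encodes the anti-inflammatory protein GILZ, Sgk1 a kinase that raises sodium transport, and Zbtb16 a zinc-finger transcription factor, and these genes are known direct targets of the receptor in various cells.

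Receptor dimers bind the palindromic glucocorticoid response element, an arm AGAACA and its reverse complement TGTTCT with 3 bases of any kind between them. Both strands were searched for the palindrome and for single arms, each palindrome holding an arm on either side, in RefSeq promoter windows of 300 bases on build GRCm38.p6. The table held 12 windows for 5 of the genes (Sgk1, Tsc22d3, Fkbp5, Hsd11b1 and Nr3c2). Only 3 of all 32851 windows held the palindrome, 0.00913%, and 1 of them was a window of Sgk1. An arm was present in 4 of the 12 windows, against 19.0% of all windows. The upstream 250 bases of the Sgk1 window with the palindrome are shown because no other window of these genes held the palindrome. This stretch spans chr10:21993640-21993889 on the plus strand, ends at the base before an internal Sgk1 start site, and has each arm in capitals, a single one near its start included. The palindrome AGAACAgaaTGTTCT lies at chr10:21993701-21993715, from 189 to 175 bases before that start.

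Sgk1 internal start: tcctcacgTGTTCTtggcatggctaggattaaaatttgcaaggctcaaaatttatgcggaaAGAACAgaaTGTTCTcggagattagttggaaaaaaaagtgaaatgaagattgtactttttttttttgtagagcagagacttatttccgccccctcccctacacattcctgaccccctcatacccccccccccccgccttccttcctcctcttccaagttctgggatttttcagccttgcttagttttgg

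Single arms were found before other starts of Sgk1 and of Tsc22d3, and are shown for comparison with the palindrome. The Tsc22d3 stretch is chrX:140600693-140600716 on the minus strand, with its arm 185 bases before the start. The Sgk1 stretches are chr10:21881980-21882003 and chr10:21992201-21992222 on the plus strand, with arms 195 and 13 bases before their starts. They are labelled upstream and downstream relative to each other, and both lie upstream of the palindrome.

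Tsc22d3 single arm: cattcgacaTGTTCTaagttctga
Sgk1 single arm, upstream: ggaatccgtTGTTCTgtgttttct
Sgk1 single arm, downstream: gtgggactcAGAACAgaaaggc

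The windows of Fkbp5, Hsd11b1 and Nr3c2 held neither sequence. A match describes these letters only, and the deposited values sum all transcripts of a gene, so no start site can be given a level of its own.

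In GENCODE M21 on GRCm38, Nr3c2 lies on chromosome 8 from 76899442 to 77245012, Hsd11b1 on chromosome 1 from 193221634 to 193264075 and Hsd11b2 on chromosome 8 from 105518755 to 105523988. Fkbp5 lies on chromosome 17 from 28399094 to 28517527, Tsc22d3 on chromosome X from 140539528 to 140600659, Sgk1 on chromosome 10 from 21882184 to 21999903 and Zbtb16 on chromosome 9 from 48654297 to 48836222. Nr3c1 lies on chromosome 18. Exons of these genes overlapped another annotated gene at 1 place, where Gm10649 shares 155 bases with Nr3c2 on the opposite strand. The deposited table lists Gm10649 at 0 in every library but the 12-week male, where it had 1 read.

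Library totals ranged from 15184210 to 23551289 reads in genes. The adrenal was checked by its markers, with all 8 cortex markers and all 6 medulla markers read in every library, and cortex sums from 251283 normalized counts in the P1 female pool to 1123672 in the 12-week female pool. Markers of other tissues differed by age. The summed kidney list (10 genes) ranged from 1406 to 10203 normalized counts at E18.5 and P1 and from 36.4 to 74.1 later, with Umod and Nphs1 at 0 from 2 weeks on. Liver sums fell from 262723 or more before 2 weeks to 454 or less at 12 weeks, and fat sums rose from 3081 or less to 27974 or more. Skeletal muscle sums were 39715 or more before 2 weeks, 186 and 8299 at 2 weeks and 54.5 or less at 12 weeks. The exocrine pancreas sum set the P1 male pool apart, at 2847 against 38.6 or less in every other library. The library labelled P1 female did not match its label fully: the levels of 4 Y-linked genes were from 15.6 to 28.1% of those in P1 males (median 21.0%). Calls of the 8 genes from P1 to a later age are therefore also given without it. In whole glands, fewer cells of a type and less RNA per cell cannot be told apart.

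**Figure D1:**
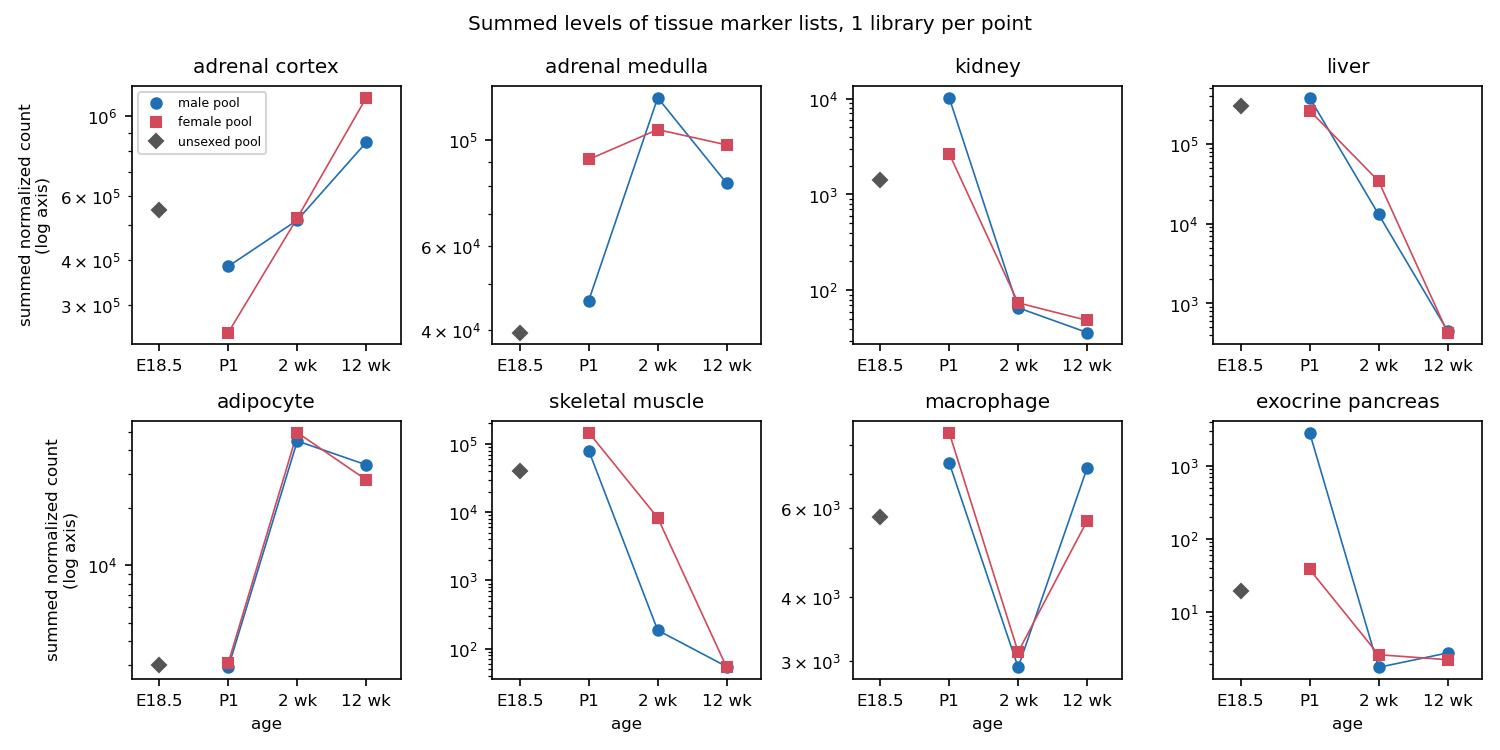
Summed normalized read counts (vertical axis, log scale) of 8 tissue marker lists by age (horizontal axis), with 1 point per library and lines joining pools of one sex. Kidney and liver sums are highest at E18.5 and P1, and fat sums are low at those ages.

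Levels in normalized counts per kb of annotated exon, averaged over the 7 libraries, were highest for Tsc22d3 (691) and Sgk1 (649), followed by Nr3c1 (391), Fkbp5 (277), Hsd11b1 (265) and Zbtb16 (182). Nr3c2 (59.0) and Hsd11b2 (9.99) were the lowest. All 8 passed the filter for testing (mean normalized count 10 or more), Hsd11b2 with a mean of 18.4. The highest library was 10.3 times the lowest for Nr3c2, 5.27 times for Hsd11b1 and 4.59 times for Hsd11b2, and from 1.40 (Fkbp5) to 1.90 times (Tsc22d3) for the others. On the log2(normalized count + 1) scale, 89.4% of the 16720 tested genes had a smaller range than Nr3c2, and 10.9% a smaller range than Fkbp5.

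**Figure D2:**
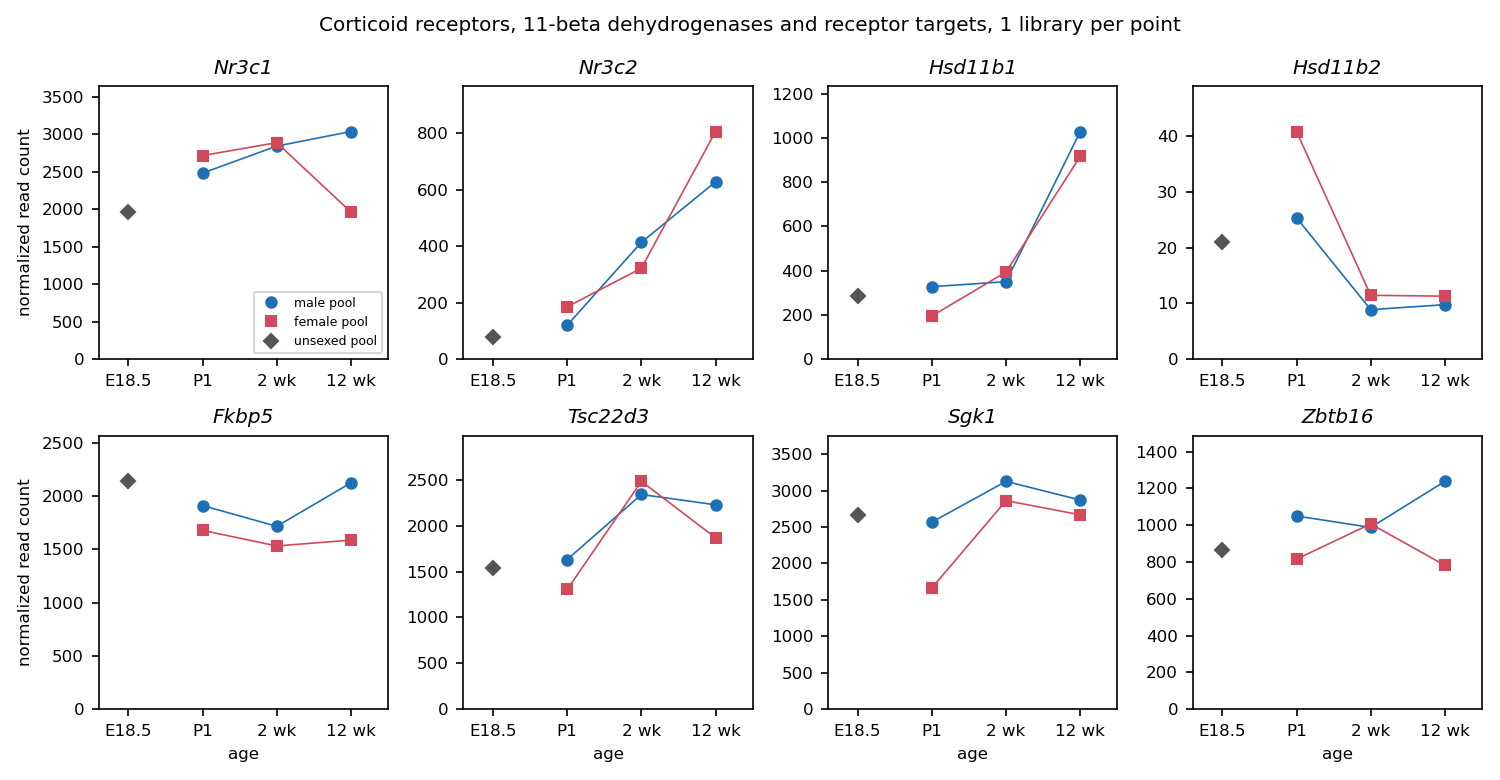
Normalized read counts (vertical axes, linear from 0) of the 8 genes by age, with 1 point per library. Nr3c2 and Hsd11b1 are highest at 12 weeks in both sexes, Hsd11b2 is highest at P1, and the other genes stay within a factor of 1.90.

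The mineralocorticoid receptor rose through postnatal life. The normalized count of Nr3c2 was 78.1 at E18.5, 120.3 in P1 males, 185.4 in P1 females, 413.6 in 2-week males, 322.0 in 2-week females, 627.8 in 12-week males and 805.5 in 12-week females. Pools of different ages did not overlap at any step, and E18.5 was the lowest. How many of all tested genes separate the ages was not counted, here or for Hsd11b1, Hsd11b2 and Tsc22d3 below. Between P1 and 12 weeks its log2 difference was 2.24 ± 0.263 (SE), a 4.74-fold rise, with an adjusted p of 0.00125 (limma, sex as a block). In single pools the ratio was 5.22 in males (counting interval 4.32 to 6.33) and 4.34 in females (3.67 to 5.17). All 14 alternative analyses called this rise, with adjusted p from 2.48e-05 to 0.0344, and without the P1 female library the log2 difference was 2.55 (adjusted p 0.0229). From P1 to 2 weeks the log2 difference was 1.28 ± 0.263 (adjusted p 0.0226). That call was lost without the P1 female library (adjusted p 0.0998), without the P1 male library (0.188), without the 2-week male library (0.229), with no filter (0.134) and with no trend in the variance (0.0680). The step from 2 to 12 weeks missed the threshold, at 0.96 ± 0.263 (adjusted p 0.0556, from 0.0282 to 0.392 over the alternatives).

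The glucocorticoid receptor was far more abundant and varied little. The normalized count of Nr3c1 was 1964 at E18.5, 2483 in P1 males, 2718 in P1 females, 2844 in 2-week males, 2890 in 2-week females, 3038 in 12-week males and 1964 in 12-week females. The 12-week female pool and the E18.5 pool were level, and the 12-week male pool was the highest. No age step passed the test, with log2 differences of 0.14 (95% interval -0.36 to 0.64) from P1 to 2 weeks, -0.23 (-0.73 to 0.27) from 2 to 12 weeks and -0.089 (-0.59 to 0.41) from P1 to 12 weeks. Those intervals leave room for a change of up to 0.73 on the log2 scale. From 2 to 12 weeks the sexes went opposite ways, a ratio of 1.07 in males (counting interval 1.01 to 1.13) and 0.68 in females (0.64 to 0.72), and the difference between them was not tested.

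Within each library the ratio of both receptors is free of scaling. Per kb of exon, Nr3c1 exceeded Nr3c2 by 23.8 times at E18.5 (exact 95% counting interval 19.3 to 29.6), 19.5 times in P1 males (16.5 to 23.2) and 13.8 times in P1 females (11.8 to 16.3). The ratio was 6.50 (5.89 to 7.18) in 2-week males and 8.48 (7.61 to 9.48) in 2-week females. At 12 weeks it was 4.57 (4.13 to 5.07) in males and 2.30 (2.11 to 2.52) in females. It was thus lower at each later age in either sex, and Nr3c1 remained the more abundant transcript everywhere. Counting intervals, here and elsewhere, do not cover differences between animals or copies made by PCR, which could not be told from separate molecules.

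Of the enzymes, Hsd11b1 rose late. Its normalized count was 285.7 at E18.5, 328.1 in P1 males, 195.4 in P1 females, 350.5 in 2-week males, 394.4 in 2-week females, 1029 in 12-week males and 916.4 in 12-week females. Both adult pools stood above all younger ones, and the P1 female pool was the lowest. The log2 difference from 2 to 12 weeks was 1.38 ± 0.242, a 2.61-fold rise (limma, adjusted p 0.0144), and that from P1 to 12 weeks was 1.93 ± 0.242 (adjusted p 0.00162). The longer comparison was called in all 14 alternatives, with adjusted p from 7.41e-05 to 0.0361, and was 1.56 (adjusted p 0.0261) without the P1 female library. The 2-to-12-week call was lost without the 2-week male library (adjusted p 0.167), without the 2-week female library (0.0618), with no filter (0.125) and with no variance trend (0.0534). From P1 to 2 weeks the difference was 0.55 ± 0.242 (adjusted p 0.171), with a ratio of 1.07 (0.93 to 1.23) in males and 2.02 (1.69 to 2.42) in females. Liver and fat also express this gene. The liver sum was 13123 in males and 34280 in females at 2 weeks, and 454 and 432 at 12 weeks. The fat sum was 2915 in P1 males and 3081 in P1 females. It was higher at 2 weeks (44689 in males, 49465 in females) than at 12 weeks (33518 and 27974). Its genes did not move alike from 2 to 12 weeks. Ucp1, Cidea, Plin1 and Fabp4 fell in both sexes, while Adipoq, Cfd, Lep and Retn rose in both. The part of either tissue in the level of Hsd11b1 was not tested.

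Hsd11b2 was scarce at every age. Its normalized count was 21.0 at E18.5, 25.4 in P1 males, 40.8 in P1 females, 8.90 in 2-week males, 11.5 in 2-week females, 9.79 in 12-week males and 11.3 in 12-week females, from 7 to 37 reads per library. E18.5 and P1 pools were above all later pools. Between P1 and 12 weeks it fell by 1.53 on the log2 scale (SE 0.449, adjusted p 0.0346 in limma), and from P1 to 2 weeks the difference was -1.58 ± 0.449 (adjusted p 0.0596, from 0.0246 to 0.295 over the alternatives). The P1-to-12-week call was lost when any 1 of the 6 postnatal libraries was left out, with adjusted p from 0.0662 to 0.138, and was 0.135 without the P1 female library. It was also lost with no filter, at 0.0675. Kidney markers were high in the same E18.5 and P1 libraries. Within P1 the kidney sum was 10203 normalized counts in the male pool and 2667 in the female pool. Hsd11b2 did not differ between these pools beyond counting error (male over female 0.62, counting interval 0.37 to 1.03). The part of kidney tissue in the level of Hsd11b2 was not tested.

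The per-kb ratio of Hsd11b1 to Hsd11b2 was 13.3 (8.83 to 20.8) at E18.5, 12.6 (8.75 to 18.8) in P1 males and 4.66 (3.26 to 6.84) in P1 females. It reached 38.4 (20.7 to 80.7) in 2-week males and 33.5 (19.4 to 63.5) in 2-week females, and 102.5 (49.5 to 255.9) in 12-week males and 79.0 (42.7 to 165.3) in 12-week females. Within each age from 2 weeks on the intervals of the sexes overlapped, while those of the P1 pools did not.

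**Figure D3:**
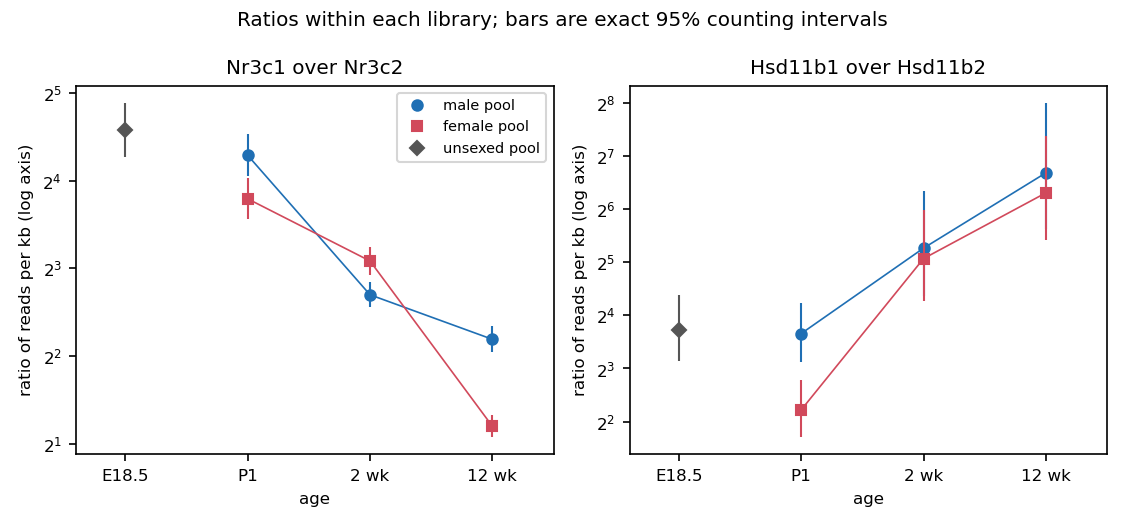
Ratios of reads per kb of exon within each library (vertical axes, log scale) by age, with exact 95% counting intervals as bars. The ratio of Nr3c1 to Nr3c2 goes from 23.8 at E18.5 to 4.57 and 2.30 at 12 weeks, and that of Hsd11b1 to Hsd11b2 from 13.3 to 102.5 and 79.0.

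Among the receptor targets, Tsc22d3 rose after P1. Its normalized count was 1543 at E18.5, 1632 in P1 males, 1305 in P1 females, 2341 in 2-week males, 2484 in 2-week females, 2229 in 12-week males and 1869 in 12-week females. All pools from 2 weeks on were above the earlier ones. The log2 difference from P1 to 2 weeks was 0.72 ± 0.160, a 1.65-fold rise (limma, adjusted p 0.0283). The call was lost without the P1 female library (0.61, adjusted p 0.174), without any other 1 of the P1 and 2-week libraries (adjusted p 0.123, 0.126 and 0.288), with no filter (0.112) and with no variance trend (0.0911). From P1 to 12 weeks the difference was 0.48 ± 0.160 (adjusted p 0.0501, from 0.0433 to 0.233 over the alternatives).

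The normalized count of Sgk1 was 2662 at E18.5, 2567 in P1 males, 1663 in P1 females, 3127 in 2-week males, 2862 in 2-week females, 2870 in 12-week males and 2668 in 12-week females. The P1 female pool stood apart below the others, which lay within 2567 to 3127. From P1 to 2 weeks the log2 difference was 0.53 ± 0.177 (adjusted p 0.0910), and without the P1 female library it was 0.28 (adjusted p 0.342). Leaving out either 12-week library instead brought the adjusted p to 0.0318 or 0.0319.

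The normalized count of Fkbp5 was 2139 at E18.5, 1912 in P1 males, 1679 in P1 females, 1717 in 2-week males, 1532 in 2-week females, 2125 in 12-week males and 1587 in 12-week females. Its log2 differences were -0.14 (95% interval -0.49 to 0.21) from P1 to 2 weeks, 0.18 (-0.17 to 0.53) from 2 to 12 weeks and 0.036 (-0.31 to 0.39) from P1 to 12 weeks, and none passed. The last of these turned to -0.084 with libraries scaled to equal totals.

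The normalized count of Zbtb16 was 863.7 at E18.5, 1051 in P1 males, 815.7 in P1 females, 988.3 in 2-week males, 1008 in 2-week females, 1239 in 12-week males and 781.8 in 12-week females. Both the highest and the lowest value were at 12 weeks. Its log2 differences were 0.11 ± 0.196, -0.020 ± 0.196 and 0.088 ± 0.196 from P1 to 2 weeks, 2 to 12 weeks and P1 to 12 weeks, with adjusted p from 0.742 to 0.958. The last turned to -0.031 with equal totals.

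Read against all genes, 2 of the 8 were called from P1 to 2 weeks (Nr3c2 and Tsc22d3, both higher) where 16.4% of all tested genes were called, 5.89% higher and 10.5% lower. From 2 to 12 weeks 1 of 8 was called (Hsd11b1), against 15.3% of all genes, 5.4% higher and 9.89% lower. With libraries scaled to equal totals, the calls of all genes over this step split into 647 higher and 2515 lower, against 903 and 1654. Over the whole span from P1 to 12 weeks 3 of 8 were called (Nr3c2 and Hsd11b1 higher, Hsd11b2 lower), against 41.2% of all genes, 17.6% higher and 23.5% lower, so the share of the set was near the background. The median log2 difference of the 8 was 0.34, 0.017 and 0.25 in these comparisons, and that of all tested genes 0.0026, -0.032 and -0.027. These comparisons share their libraries and are not independent of each other.

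**Figure D4:**
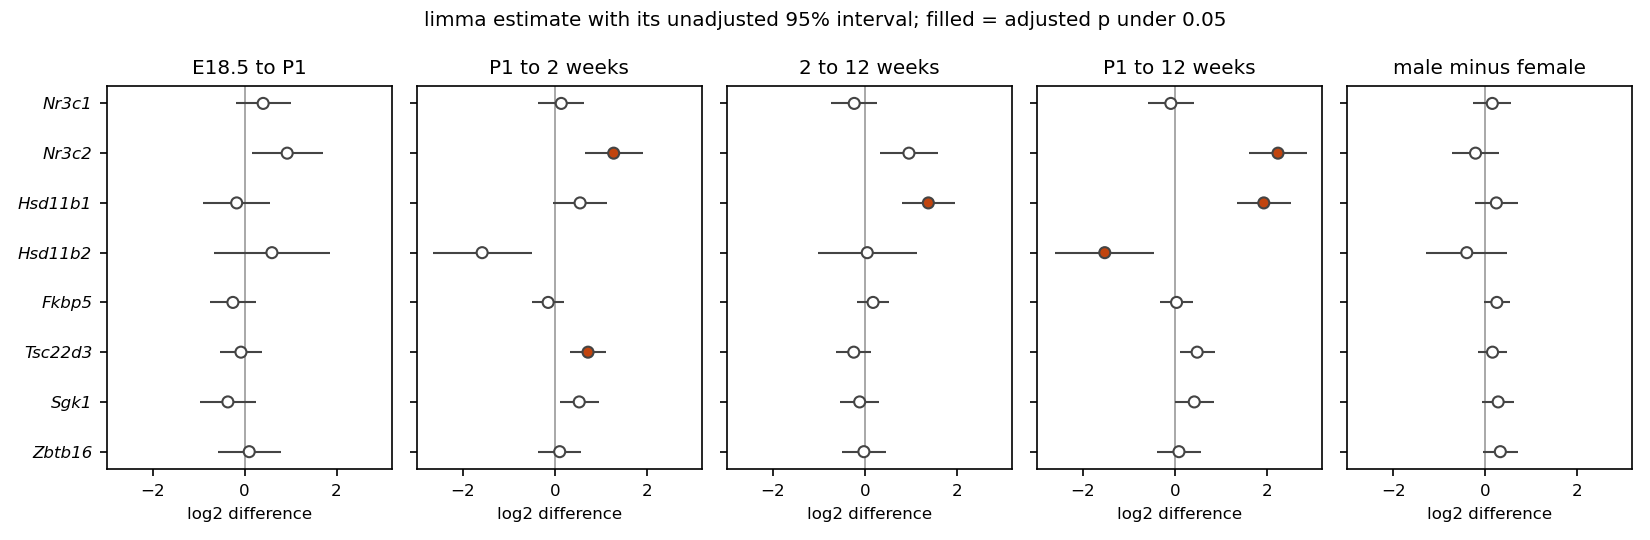
Log2 differences of the 8 genes (horizontal axes) in 5 limma comparisons, with unadjusted 95% intervals as bars and filled points where the adjusted p was under 0.05. Filled points are Nr3c2 and Tsc22d3 from P1 to 2 weeks, Hsd11b1 from 2 to 12 weeks, and Nr3c2, Hsd11b1 and Hsd11b2 from P1 to 12 weeks.

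Birth was examined by setting E18.5 against the P1 pools in a fit of all 7 libraries, in which the lone E18.5 library was assumed to vary like the others. None of the 8 genes passed in limma or in edgeR, where limma called 0.00598% of all tested genes. Only Nr3c2 had an unadjusted p under 0.05, with a log2 difference of 0.93 ± 0.326 (p 0.0258, adjusted p 0.306). Against E18.5 it was 1.54 times higher in P1 males (counting interval 1.18 to 2.02) and 2.37 times higher in P1 females (1.83 to 3.09). It was the only gene of the 8 at least 2-fold from E18.5 in the P1 female pool, against 13.2% of all tested genes (7.04% higher, 6.12% lower), and none was in the male pool, against 8.4% (4.9% higher, 3.5% lower). Nr3c1 was also above E18.5 beyond counting error in both P1 pools, with a ratio of 1.26 in males and 1.38 in females. Fkbp5 was below E18.5 beyond counting error in both, at 0.89 in males and 0.78 in females. Hsd11b1 and Tsc22d3 were below E18.5 beyond counting error in the P1 female pool only. Hsd11b1 had a ratio of 1.15 (0.99 to 1.33) in males and 0.68 (0.57 to 0.82) in females, and Tsc22d3 1.06 (0.99 to 1.13) and 0.85 (0.79 to 0.91). Sgk1 was at 0.96 of E18.5 in males (0.92 to 1.01) and 0.62 in females (0.59 to 0.66). Zbtb16 was at 1.22 of E18.5 in males (1.12 to 1.32) and 0.94 in females (0.86 to 1.04).

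The sexes were compared over the 3 postnatal ages with age as a block. None of the 8 genes passed in limma or in edgeR, and none had an unadjusted p under 0.05, while limma called 0.00598% of all tested genes. The nearest in limma were Fkbp5 (log2 difference 0.26 ± 0.119, p 0.0706, adjusted p 0.999), Zbtb16 (0.33 ± 0.160, p 0.0785) and Sgk1 (0.29 ± 0.144, p 0.0906). Fkbp5 and Sgk1 were higher in males at 3 of 3 ages, and Zbtb16 at P1 and 12 weeks. Hsd11b2 was lower in males at 3 of 3 ages, within counting error at each. How many of all tested genes keep a direction at every age was not counted. At single ages none of the 8 was at least 2-fold apart, against 6.78% of all tested genes at P1 (3.75% higher in males, 3.03% lower), 4.24% at 2 weeks (0.568% and 3.67%) and 8.83% at 12 weeks (4.84% and 3.98%). At 12 weeks the male pool was above the female pool for Zbtb16 (ratio 1.58, counting interval 1.43 to 1.75), Nr3c1 (1.55, 1.45 to 1.65) and Fkbp5 (1.34, 1.24 to 1.44), and below it for Nr3c2 (0.78, 0.69 to 0.88). At 2 weeks Nr3c1 (0.98, 0.94 to 1.03) and Zbtb16 (0.98, 0.90 to 1.07) were level between the sexes within counting error. Beyond counting error, the P1 pools differed most in Hsd11b1 (1.68, 1.40 to 2.02), Nr3c2 (0.65, 0.52 to 0.81) and Sgk1 (1.54, 1.45 to 1.64). The library labelled P1 female held Y-linked transcripts, so these P1 ratios and the fit of sex do not rest on a purely female pool. Without it, the sex difference over postnatal ages went from 0.25 to -0.0013 for Hsd11b1 and from 0.26 to 0.29 for Fkbp5. Cortex sums at P1 were 383286 normalized counts in males and 251283 in females, and medulla sums 46086 and 91170. Their part in the P1 differences was not tested.

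Other genes of corticoid action were described from 6 lists. The 10 receptor chaperones and co-chaperones hold the receptor ready to bind hormone. None of them passed from P1 to 2 weeks or from 2 to 12 weeks, where 16.4% and 15.3% of all tested genes did. From P1 to 12 weeks only Ppid, a cyclophilin partner of Hsp90, passed (log2 0.56 ± 0.161, limma, adjusted p 0.0324), against 41.2% of all tested genes. A list of 10 genes is too short for such counts to be read as a lack of change. Of 10 coregulators, none passed at either step and 3 fell from P1 to 12 weeks, where 23.5% of all tested genes fell, among them the acetyltransferase Crebbp (-0.60) and the chromatin remodeller Smarca4 (-0.52). The list medians from P1 to 12 weeks were 0.13 for chaperones and -0.21 for coregulators, against -0.027 for all genes.

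Of the 22 other glucocorticoid targets, 4 rose and 4 fell from P1 to 2 weeks, with a list median of 0.044, where 5.89% of all tested genes rose and 10.5% fell. Pdk4, which holds back glucose oxidation, rose by a log2 difference of 1.44 ± 0.162, the repressor Bcl6 by 1.27 ± 0.200 and Pck1, an enzyme of gluconeogenesis, by 0.93 ± 0.171. Tat, a tyrosine-degrading enzyme of liver, fell by a log2 difference of -3.17, as did Anxa1, an anti-inflammatory annexin, at -1.60 and the metallothionein Mt2 at -1.55. From 2 to 12 weeks none rose and 7 fell (median -0.66), against 5.4% and 9.89% of all tested genes, among them Tat (-4.86), Pdk4 (-2.00) and the insulin receptor substrate Irs2 (-1.46). From P1 to 12 weeks 1 rose, the transcription factor Klf9 (0.86 ± 0.148, adjusted p 0.00507), and 10 fell (median -0.57), against 17.6% and 23.5% of all tested genes, with Tat (-8.03), Lcn2 (-6.22), a neutrophil and epithelial lipocalin, and the cell cycle inhibitor Cdkn1c (-2.28) the furthest. Liver and neutrophil marker sums fell over the same ages, the neutrophil list from 2252 or more normalized counts at P1 to 57.3 or less at 12 weeks, and their part in the levels of Tat and Lcn2 was not tested. Pdk4, Bcl6 and Pck1 were highest at 2 weeks in both sexes. The fat sum was also highest then, at 44689 normalized counts in males and 49465 in females. Of its genes, Ucp1, Cidea, Plin1 and Fabp4 were highest at 2 weeks in both sexes, and Adipoq, Cfd, Lep and Retn at 12 weeks. The part of fat in the levels of Pdk4, Bcl6 and Pck1 was not tested. At birth Pck1 was the only gene of all tested that passed, from 43.7 normalized counts at E18.5 to 3208 in P1 males and 3800 in P1 females (log2 6.29 ± 0.185). This call was lost with no filter. Over the alternatives, each left-out library included, the log2 difference of Pck1 at birth ranged from 6.17 to 6.41.

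Of 10 genes of the mineralocorticoid response, 1 rose and 4 fell from P1 to 2 weeks, and 1 rose and 6 fell from P1 to 12 weeks, with list medians of -0.92 and -1.26. Of all tested genes, 5.89% rose and 10.5% fell in the first comparison and 17.6% rose and 23.5% fell in the second. Usp2, a deubiquitinase, rose by log2 0.90 ± 0.238 and 1.33 ± 0.238 in these comparisons. Nedd4l, a ubiquitin ligase that removes sodium channels from the membrane, fell by a log2 difference of -1.05 and the sodium pump subunit Atp1b1 by -1.39 from P1 to 12 weeks. The 4 that fell by 2 weeks, picked out after their values were seen, were the sodium channel subunits Scnn1a, Scnn1b and Scnn1g and the potassium channel Kcnj1. Kcnj1 had 165.3 normalized counts in P1 males, 44.2 in P1 females and 0 in every later pool, and Scnn1g had 184.9, 36.4 and 0.89 or less. The kidney sum was also highest in P1 males, followed by P1 females, and its part in these falls was not tested. From 2 to 12 weeks none rose and 2 fell, Scnn1b and Atp1b1, against 5.4% and 9.89% of all tested genes.

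Of 10 genes of glucocorticoid synthesis, Hsd3b1 rose from P1 to 2 weeks (1.28 ± 0.316), none passed from 2 to 12 weeks, and Star (2.43 ± 0.371), Hsd3b1 (1.91 ± 0.316) and Fdx1 (1.38 ± 0.414) rose from P1 to 12 weeks. Star carries cholesterol into the mitochondrion, Hsd3b1 encodes a steroid dehydrogenase and Fdx1 an electron carrier of the mitochondrial hydroxylases. Of all tested genes, 5.89% rose from P1 to 2 weeks and 15.3% were called from 2 to 12 weeks. The 3 of 10 that rose from P1 to 12 weeks stand beside 17.6% of all tested genes. The list median from P1 to 12 weeks was 0.97, against -0.027 for all genes. Among 9 genes of cofactor supply, transport and clearance, 4 rose and 2 fell from P1 to 12 weeks, where 17.6% of all tested genes rose and 23.5% fell. H6pd, which supplies NADPH to the enzyme of Hsd11b1, had a log2 difference of -0.41 (adjusted p 0.0577) and from 3420 to 4784 normalized counts over all libraries. Slc37a4, which brings in the sugar phosphate that H6pd uses, fell, with log2 differences of -1.57 from P1 to 2 weeks and -1.66 from P1 to 12 weeks. It had 805.2 normalized counts in P1 males, 436.0 in P1 females and from 179.0 to 213.5 later. Liver and kidney sums also fell after P1, and their part in the levels of Slc37a4, and of Cyp3a11 below, was not tested. The efflux pumps Abcb1a (1.40 ± 0.170) and Abcb1b (2.55 ± 0.652) rose from P1 to 12 weeks, Abcb1b to 137924 normalized counts in males and 27248 in females. The steroid reductase Srd5a2 (5.69 ± 1.04) rose too, with pools of 34433 (male) and 1471 (female) normalized counts at 12 weeks. Over the same span the liver-type oxidase Cyp3a11 fell by 8.17, to 25.2 normalized counts in males and 1.13, near the floor, in females. The reductase Srd5a1 rose by 1.88 from P1 to 2 weeks.

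These list counts leaned on single libraries. Of 36 calls of named list genes, 4 held in every alternative: Tat, Atp1b1, Nedd4l and Abcb1a from P1 to 12 weeks. Without either P1 library, none of the listed genes passed from P1 to 2 weeks. Over the span to 12 weeks, leaving out either P1 library also removed many calls. Without the library labelled P1 female no chaperone, coregulator or synthesis gene passed, 3 other glucocorticoid targets fell (Tat, Anxa1 and Cdkn1a), and none rose. The 6 falls of the mineralocorticoid list held without it and without the P1 male library, while Usp2 no longer passed. Of the cofactor list, Abcb1a rose and Slc37a4 fell without it. Without the P1 male library, Klf9 and Lpin1 rose and Tat fell among the targets, and Fdx1, Abcb1a and Cyp3a11 passed in the synthesis and cofactor lists. Sizes moved as well. Over the alternatives from P1 to 12 weeks, the log2 difference of Fdx1 ranged from 0.58, without the P1 female library, to 2.19, without the P1 male library. That of Srd5a2 ranged from 3.40 to 7.97 and that of Abcb1b from 1.17 to 3.94, the lower value without the 12-week male library and the higher without the 12-week female library. Cdkn1c was at -1.27 without the 12-week male library and Lcn2 at -4.03 without the 12-week female library. From P1 to 2 weeks, Slc37a4 was at -1.05 without the P1 male library and Usp2 at 0.59 without the 2-week male library.

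**Figure D5:**
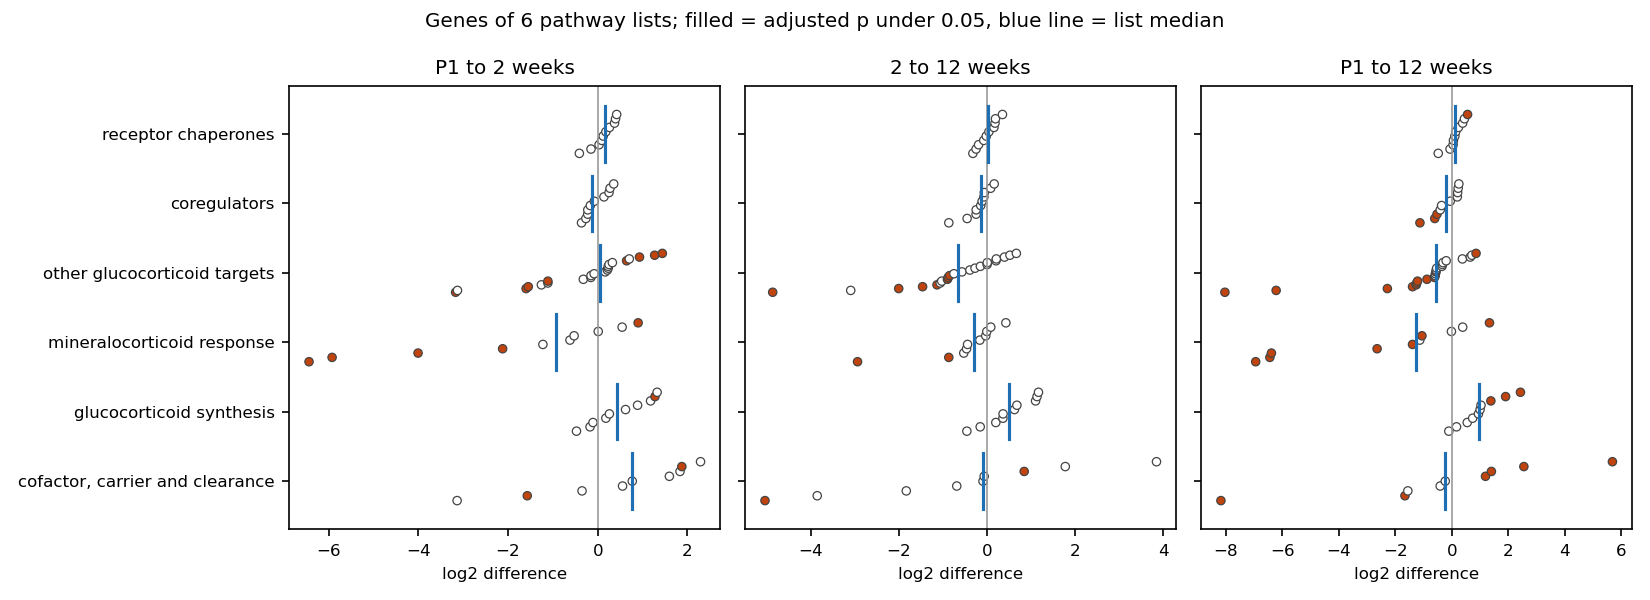
Log2 differences (horizontal axes) of the genes of 6 lists in 3 age comparisons, filled where the adjusted p was under 0.05, with the list median as a blue line. Chaperones and coregulators cluster near 0, while the target and mineralocorticoid lists spread both ways with more filled points below 0 from P1 to 12 weeks.

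For each member, the genes with the most similar pattern were found by Pearson's r of log2 values over the 7 libraries, among the 12248 genes whose mean normalized count was 100 or more. These are descriptions over few libraries that share age and tissue makeup. Among the genes nearest to Nr3c2 were Cul4a and Ccpg1 (r = 0.995 for each), and 193 genes had an r of at least 0.95 with it. Hsd11b1 was nearest to Derl1 (0.994), Zmpste24 (0.993) and Pspc1 (0.993), with 203 such genes. Hsd11b2 was nearest to Gldc (0.998), Msln (0.996) and Hykk (0.994), with 110. Msln, a mesothelial surface protein, had 879.7 normalized counts in P1 females, 428.0 in P1 males and from 89.5 to 107.6 after that. Gldc, Msln and Hykk were all higher in P1 females than in P1 males. They were picked for likeness to Hsd11b2, whose own P1 pools did not differ beyond counting error. The part of any tissue in this order was not tested. Nr3c1 was nearest to Stk32a (0.984), Luzp1 (0.975) and Zfp366 (0.968), Tsc22d3 to Cyth1 (0.986), Med17 (0.984) and Bok (0.980), and Sgk1 to Lypla2 (0.976), Wdr3 (0.964) and Arhgef6 (0.958). Fkbp5 was nearest to C2cd5 (0.959), Rlf (0.951) and Tspan11 (0.944), and Zbtb16 to Steap4 (0.960), Rapgef3 (0.955) and Enpp6 (0.951). For Fkbp5 and Zbtb16, the number of genes at 0.95 or above was 2 and 3.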

How the data were processed

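Total RNA from 7 adrenal pools was sequenced. CASAVA 1.8.2, HISAT2 2.1.0, HTSeq 0.9.1, DESeq2 and build mm10 are named, with no role, in the submitters' processing notes; the annotation and strand setting are not given in the sources used here. The authors deposited normalized counts, a signal per gene: read counts divided by 1 factor per library. Every value came out whole (within 0.01 reads) when divided by the value of 1 read, so reads were recovered. The 16720 genes whose mean normalized count was 10 or more were tested with limma 3.58.1 in R 4.3.3 on log2(normalized count + 1), eBayes with a trend, two-sided, Benjamini-Hochberg adjustment over all of them and a threshold of 0.05. Postnatal ages were compared with sex as a block over 6 libraries, the sexes with age as a block, and E18.5 with P1 in a fit of age alone over 7 libraries. These p-values use differences between pools as the spread, and no group had a replicate pool. In the fits with age and sex, that spread is how much the sex difference varies between ages. In the fit of E18.5 with P1, sex differences themselves enter the spread. The edgeR 4.0.16 quasi-likelihood test on recovered reads was an alternative, as were another pseudocount, filters, scalings, no variance trend, no sex term and each library left out. Single libraries were compared by read ratios with exact binomial 95% intervals. Fits were tested on simulated data. Named list genes are up to 3 called genes per list and direction with the largest difference and a mean of at least 100. Exon lengths are from GENCODE M21 and promoter windows from RefSeq. The members and lists were chosen with earlier results of these data known. A few genes that the rules for named and similar genes pick are not reported here.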

Additional observations from a re-analysis of the deposited data

Results flagged for a closer look

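Nr3c1 and Zbtb16 moved in opposite directions in the sexes with age, beyond counting error in either sex, and the difference between the sexes was not tested. From 2 to 12 weeks the log2 ratio of Nr3c1 was 0.10 in males and -0.56 in females, and that of Zbtb16 was 0.33 in males and -0.37 in females. From P1 to 12 weeks the log2 ratio of Nr3c1 was 0.29 in males and -0.47 in females, in a comparison that includes the library labelled P1 female. Each value rests on 1 pool per sex and age.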

How the results depend on the processing

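Among recomputed differences of the 8 genes, 489 kept their direction and side of the threshold, 22 lost the call, 11 gained it and 25 changed sign, none of the last from a called value. For the other named genes, 363 kept both and 141 lost the call. With no filter, members called fell to 0 from P1 to 2 weeks and 0 from 2 to 12 weeks, and all genes called to 0 in these (6431 and 6036 at an unadjusted p under 0.05), 0 at birth and 0 for sex. With no variance trend, 1 member was called from P1 to 2 weeks (Hsd11b2) and 0 from 2 to 12 weeks, and all genes called were 1672, 1661, 2 at birth and 0 for sex, against 2737, 2557, 1 and 1 in the reported fits. Nr3c2 joined Hsd11b1 from 2 to 12 weeks, for 2 members, with upper-quartile scaling and with no sex term. In edgeR 0 genes were called for sex (667 at an unadjusted p under 0.05). Equal totals moved the median of all genes to -0.20 from 2 to 12 weeks and -0.15 from P1 to 12 weeks, and called 647 higher and 2515 lower against 903 and 1654 in the former. Leaving out single libraries gave 0 to 4 members and 2 to 4461 genes from P1 to 2 weeks, 0 to 2 members and 421 to 3035 genes from 2 to 12 weeks, 3207 to 6271 genes from P1 to 12 weeks, 0 to 51 for sex and 1 to 2 at birth. The fewest genes from P1 to 2 weeks, 2 and 28, were left without the P1 male and P1 female libraries. The cause was not tested.

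With equal totals, the difference turned to -0.084 for Fkbp5 and -0.031 for Zbtb16 from P1 to 12 weeks, and to -0.10 for Hsd11b2 from 2 to 12 weeks. Over left-out libraries, differences that changed sign ranged as follows. At birth, Hsd11b1 went from -0.55 to 0.20, Tsc22d3 from -0.24 to 0.081 and Zbtb16 from -0.082 to 0.28. From P1 to 2 weeks, Nr3c1 went from -0.074 to 0.36 and Zbtb16 from -0.16 to 0.38. From 2 to 12 weeks, Hsd11b2 went from -0.10 to 0.21, Nr3c1 from -0.58 to 0.12, Sgk1 from -0.25 to 0.023 and Zbtb16 from -0.29 to 0.25. From P1 to 12 weeks, Fkbp5 went from -0.087 to 0.16, Nr3c1 from -0.44 to 0.26 and Zbtb16 from -0.16 to 0.34. For sex, Hsd11b1 went from -0.0013 to 0.46, Nr3c1 from -0.077 to 0.30 and Nr3c2 from -0.49 to 0.00054. No paired analysis was possible because each group was 1 library with no replicate number to pair on, so the blocks in the reported fits were sex, for the postnatal ages, and age, for the sexes. Ratios within a library do not depend on scaling, and Hsd11b2 has too few reads, 7 to 37 per library, to resolve small changes.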
